A study of Mus musculus with 26 samples.

Results

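The receptors of retinoic acid are encoded by 6 mouse genes, Rara, Rarb and Rarg for the retinoic acid receptors (RAR) and Rxra, Rxrb and Rxrg for the retinoid X receptors (RXR). The 6 genes are the members of the 2 receptor families, taken with earlier results of these data known, and they are 6 of the 21911 protein-coding genes in the annotation. For each gene, the open chromatin peaks and dynamic enhancer regions were taken from its body and 100 kb on each side. The cells were E14, a feeder-free line of mouse embryonic stem cells, grown for 48 h in medium with leukemia inhibitory factor (LIF), the cytokine that keeps them pluripotent. For the last 4 h before harvest, the medium was replaced by fresh medium with LIF (mESC+) or by medium without LIF and with 1 µM retinoic acid (RA, mESC-). LIF withdrawal and RA were applied together, so their parts cannot be told apart, and both states come from 1 cell line. Of the 26 libraries of the study, the values used here rest on 6 RNA-seq libraries (3 per state), 2 ATAC-seq libraries (1 per state) and 8 ChIP-seq libraries (4 per state). With 1 ATAC-seq library and 1 set of ChIP-seq libraries per state, no difference in open chromatin or enhancer probability has a replicate check.

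A RAR binds all-trans RA and sits on DNA as a heterodimer with an RXR. The heterodimer recognizes pairs of the hexamer AGGTCA or close variants, arranged as direct repeats, and the spacing of the repeat helps to decide which receptor pair binds. Without ligand it recruits corepressors, with ligand it recruits coactivators, and the RAR genes themselves are classical targets: each has a downstream promoter that drives an isoform with its own N-terminal part. RXRs also pair with thyroid hormone, vitamin D, PPAR and LXR receptors.

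Exact direct repeats spaced by 5 bases, the arrangement best known for RAR-RXR, were found inside accessible loci of all 3 RAR genes and of none of the 3 RXR genes. A locus is a stretch where overlapping peaks of both states are merged, and a repeat is a pair of hexamers on either strand, where each is the consensus AGGTCA, its variant AGTTCA, the variant GGGTCA or the variant GGTTCA. Each RAR gene held 1 such locus, and each lay over the gene itself. Of all 179949 loci on the assembled chromosomes, 0.31% held a repeat of this kind. Of protein-coding genes, 7.69% had such a locus within 100 kb and 1.31% had one over the gene. Its absence at the 3 RXR genes is near these shares and is no result about them. The genes were chosen with earlier results known, and RAR genes are classical targets, so the matches are a description and not a test. The 3 repeats are shown with the bases around them (GRCm38, strand of the gene, hexamers in capitals), because the peaks described next are read against them. The one of Rara is on the plus strand at chr11:98960008-98960024, in an intron and 396 bp upstream of the start of transcript Rara-202. It lies 4856 bp upstream of the nearest RefSeq start. The one of Rarb is on the minus strand at chr14:16575513-16575529, in an annotated untranslated exon, 22 bp downstream of the start of Rarb-201 and 45 bp upstream of the RefSeq start. The one of Rarg is on the minus strand at chr15:102250817-102250833, in an intron, 479 bp upstream of Rarg-206 and 4325 bp upstream of Rarg-202.
Rara: caggcgAGTTCAgcaagAGTTCAgccgaa
Rarb: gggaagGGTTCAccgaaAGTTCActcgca
Rarg: ggtcagGGTTCAaagtgAGGTCAcggtat

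The 3 repeats were built from different hexamers. Rara carried AGTTCA at both positions, Rarb GGTTCA followed by AGTTCA and Rarg GGTTCA followed by AGGTCA. The AGTTCA pair of Rara occurred 1385 times in the genome, with 30 copies (2.17%) inside a locus, and the pair of Rarb 397 times, with 19 copies (4.79%) inside a locus. The pair of Rarg occurred 815 times, of which 51 (6.26%) lay inside a locus. Over all hexamer pairs, 592 of 9284 repeats spaced by 5 (6.38%) lay inside a locus. Within 100 kb of the genes, 1, 4 and 3 such repeats were found for Rara, Rarb and Rarg. For Rxra, Rxrb and Rxrg there were 1, 3 and 1. The RXR windows thus also held the letters, but in none of their loci, which for so few repeats is near the 6.38% over the genome. In the RefSeq promoter table (GRCm38.p6, 250 bases before to 50 after a start), 1 of the 13 promoters of the 6 genes, that of Rarb, held the repeat, against 0.0974% of all 32851 promoters.

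The longer stretch around the repeat of Rarg shows how the hexamers of this peak adjoin (GRCm38, minus strand, exact repeats in capitals). The Rarg stretch is chr15:102250676-102250889, 214 bases with a GC content of 56.5%. In it, the first hexamer of the repeat spaced by 5 is also the second hexamer of a direct repeat spaced by 1, so 3 hexamers follow each other.
Rarg: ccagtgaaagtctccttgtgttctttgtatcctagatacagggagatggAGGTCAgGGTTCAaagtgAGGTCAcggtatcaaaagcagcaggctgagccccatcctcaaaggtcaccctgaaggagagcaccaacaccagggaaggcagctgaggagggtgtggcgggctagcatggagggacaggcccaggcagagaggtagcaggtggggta

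At Rara, the peak reached the repeat in mESC- but not in mESC+. The mESC+ peak spanned 187 bp, from 98960317 to 98960503, and covered the start of Rara-202, with its edge 292 bp from the repeat. The mESC- peak spanned 523 bp, from 98959960 to 98960482, extended 357 bp further upstream, and the summit of the locus lay 19 bp from the repeat. Of the 592 repeats inside any locus, 47.3% were covered by a mESC- peak alone, 280 in both states and 32 in mESC+ alone. These include repeats in loci without a mESC+ peak, as 197 of the 558 loci with a repeat were found in mESC- alone. The Rara locus was found in both states, and the share among repeats of such loci was not computed. The Rara locus was weak in both libraries. Its fold enrichment over the local background was 3.03 in mESC+ and 3.34 in mESC-, which placed it at percentile 0.554 and 1.22 of the respective list. By the -log10 p-value of the peak, which also depends on the number of reads, it stood at percentile 13.7 in mESC+ and 27.5 in mESC-.

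At Rarb, the repeat lay in a strong peak in both states. The peak spanned 558 bp in mESC+ and 544 bp in mESC-, with fold enrichments of 12.5 and 10.5 and percentiles of 87.5 and 81.3. By -log10 p-value, the percentiles were 90.3 and 90.5, so the direction of this small difference depends on the measure. A further match with 1 mismatch (GGGTCAtttgaAGGTTA) lay 13 bp from the first one inside the same peak.

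At Rarg, the peak over the repeat kept its extent and lost rank. It spanned 221 bp in mESC+ and 227 bp in mESC-, and its fold enrichment was 5.51 and 3.78, at percentiles 33.1 and 4.34. By -log10 p-value the percentiles were 74 and 43.9. Of all shared loci, 15.1% fell by 20 points or more by fold enrichment and 6.99% rose by as much. The plot of peak extents sets the 3 genes side by side on the scale of the repeat: in the RAR genes, the repeat was covered in mESC- alone at Rara, while at Rarb and Rarg both states covered it.

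**Figure D1:**
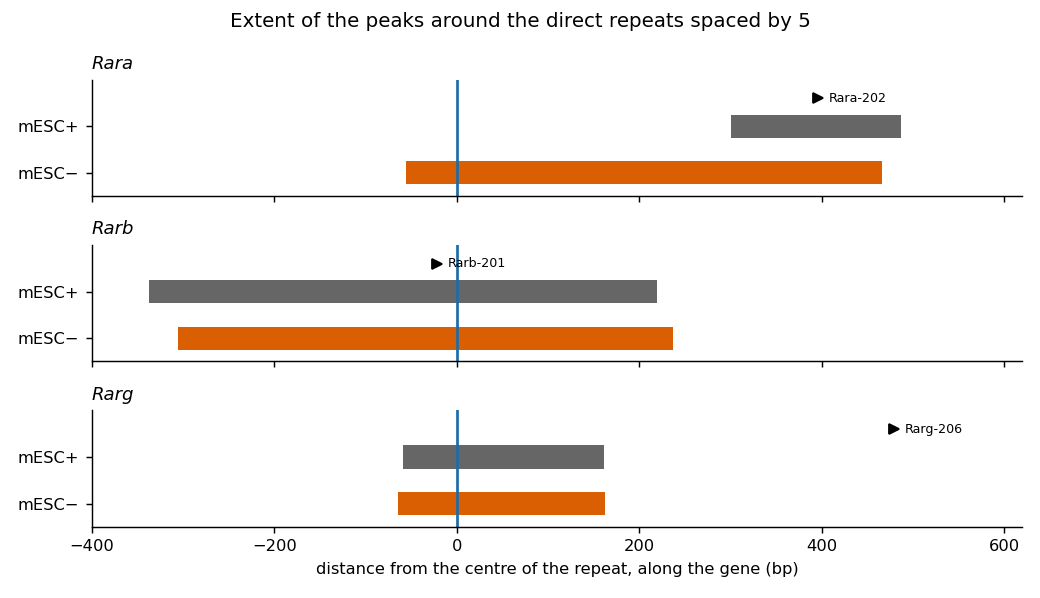
Extent of the ATAC-seq peaks of mESC+ (gray) and mESC- (orange) around the direct repeat spaced by 5 of each RAR gene; the horizontal axis is the distance in bp from the centre of the repeat (blue line) along the gene, and the triangle marks the nearest annotated start. The mESC+ peak of Rara ends 292 bp short of the repeat, the mESC- peak covers it, and at Rarb and Rarg the peaks of both states cover it.

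Over all 558 loci that held a direct repeat spaced by 5, 349 (62.5%) were found in both states, 197 (35.3%) in mESC- alone and 12 (2.15%) in mESC+ alone. Over all loci, the shares were 65.3%, 11% and 23.7%. The shared loci with the repeat had a median change in percentile of 5.43 from mESC+ to mESC-, and 71.1% ranked higher in mESC-, against -2.49 and 40.7% over all shared loci. All 3 loci of the RAR genes were shared, with changes of 0.669 at Rara, -6.29 at Rarb and -28.7 at Rarg. By this rank each lay below the median of the shared loci with the repeat. Ranked by -log10 p-value, the changes were 13.8, 0.245 and -30.1 against a median of 7.97 over the shared loci with the repeat and -2.81 over all shared loci, so Rara then lay above the median and Rarb and Rarg below it.

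In the RNA-seq table, 4 of the 6 genes were listed, Rara, Rarb, Rarg and Rxrg, while Rxra and Rxrb had no row. The table lists 2189 genes, and 9.05% of the protein-coding genes have a row. The rule that decides which genes have a row is not given in the sources used here, and the direction and size of a change between the states were not analysed here, because the table holds them only as the authors' own comparison. A missing row therefore gives no level for Rxra and Rxrb.

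The authors' mean normalized count over all 6 libraries, which pools both states, was 9926 for Rarg, 2687 for Rara, 118 for Rxrg and 35.1 for Rarb. Per kb of exon, the means were 2330 for Rarg, 616 for Rara, 51.3 for Rxrg and 6.67 for Rarb, at percentiles 97.0, 82.5, 29.6 and 5.71 among the listed genes. Rarg was thus the most abundant listed receptor and Rarb the least, and the spread over libraries behind these means is not known. With the length of the longest transcript in place of all exons, the order stayed, with 3361, 794, 55.8 and 11.3 per kb. The median listed gene had 138 per kb.

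Of the genes that make, carry or degrade RA, 7 of 15 were listed. Among them are Cyp26a1, Cyp26b1 and Cyp26c1, which oxidize RA, Dhrs3, which reduces retinal, Lrat, which stores retinol as ester, and the transporter Stra6. Per kb, the means of these 6 genes ranged from 3.97 for Lrat to 676 for Cyp26a1. Listed were 1 of 13 other partners of RXR (Ppard, 129 per kb), 2 of 6 receptors that bind related repeats (Nr2c1, 152 per kb, and Nr6a1, 594 per kb) and 1 of 8 coregulators (Nrip1, 103 per kb), beside 9.05% of all protein-coding genes. The synthesis enzymes Aldh1a1, Aldh1a2, Aldh1a3 and Rdh10 were not listed. The plot of levels shows that Rarg lay above every gene shown and that Rarb lay above Lrat alone.

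**Figure D2:**
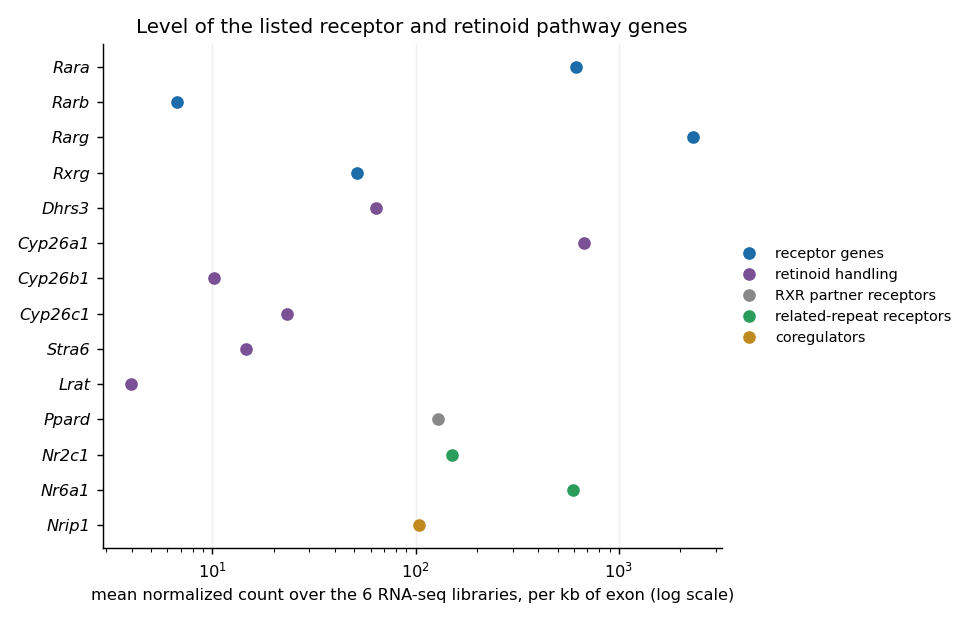
Authors' mean normalized count over the 6 RNA-seq libraries per kb of exon (horizontal axis, log scale) for the listed receptor genes and the listed genes named here of 4 related lists; each point is 1 gene and 1 pooled mean, without an error. Rarg (2330) stands at the high end and Rarb (6.67) near the low end.

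The annotated starts of the 6 genes fall into 23 sets when starts up to 500 bp apart are joined, and the sets separate the promoters of each gene. All 6 genes had a peak within 500 bp of at least 1 start in each state, against 70.4% of protein-coding genes in mESC+ and 69.4% in mESC-. When only peaks whose -log10 q reached 10 were counted, 5 of the 6 genes had one in mESC-. Of the 23 sets, 12 had a peak in both states, 2 in mESC+ alone and 1 in mESC- alone, while 8 had none.

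For Rara, the strongest peak was at the starts of Rara-204 and Rara-201, with a fold enrichment of 8.95 in mESC+ (percentile 70.1) and 10.2 in mESC- (percentile 80.0). The most upstream start, of Rara-203, had a peak of 4.38 in mESC+ (percentile 12.8) and none in mESC-. The start of Rara-202, next to the repeat, had the weak peak described above. Of the starts of Rara, the one next to the repeat thus had the lowest-ranking peak by fold enrichment in both states. In mESC-, only it and the starts of Rara-204 and Rara-201 had a peak. By -log10 p-value, its mESC+ peak (percentile 13.7) ranked above the one next to Rara-205 (percentile 11.2).

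For Rarb, the 5 transcripts that start between 16575045 and 16575827, deep inside the gene, shared the strong peak over the repeat and a smaller one of 4.14 in mESC+ and 5.02 in mESC-. The distal starts, of Rarb-204 and Rarb-203, lie 243 kb upstream and had no peak in either state. The promoter peaks of Rarb were thus all at the downstream starts.

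For Rarg, the start of Rarg-202 had a peak of 5.92 in mESC+ (percentile 40.9) and 6.69 in mESC- (percentile 52.0). The upstream starts of Rarg-205 and Rarg-201 had no peak within 500 bp in mESC+ and 2 in mESC-. These had fold enrichments of 3.79 (percentile 4.45) and 3.62 (percentile 3.04). It was the only set with peaks within 500 bp in mESC- alone. Further upstream, beyond this limit, the locus at chr15:102258148-102258355 was found in both states. Its fold enrichment was 7.85 in mESC+ (percentile 61.7) and 6.10 in mESC- (percentile 44.1). The absence of a mESC+ peak thus holds for the 500 bp limit only. At Rarg-204, the values were 3.36 and 3.46, at percentiles 1.65 and 1.81.

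Among the RXR genes, the most upstream starts of Rxrb and Rxrg ranked lower in mESC-. The peak at Rxrb-201 and 4 further transcripts had a fold enrichment of 6.44 in mESC+ (percentile 48.3) and 4.52 in mESC- (percentile 14.4), the largest fall in the window of this gene. The stronger peak next to the internal starts of Rxrb-210 and Rxrb-206 went from 8.87 to 10.1 (percentiles 69.8 and 78.7). The peak at Rxrg-201, Rxrg-204 and Rxrg-203 had 10.0 in mESC+ (percentile 76.7) and 5.96 in mESC- (percentile 42.8), while the downstream start of Rxrg-202 went from 4.32 to 5.32 (percentiles 12.2 and 27.8). At Rxra-204 the values were 8.39 and 6.80 (percentiles 66.1 and 52.8), and at the internal start of Rxra-205 they were 10.2 and 9.89 (percentiles 78.1 and 77.9). The plot of start sets shows falls and rises side by side, with the longest lines at Rxrb-201, Rxrg-201 and Rarg-206.

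**Figure D3:**
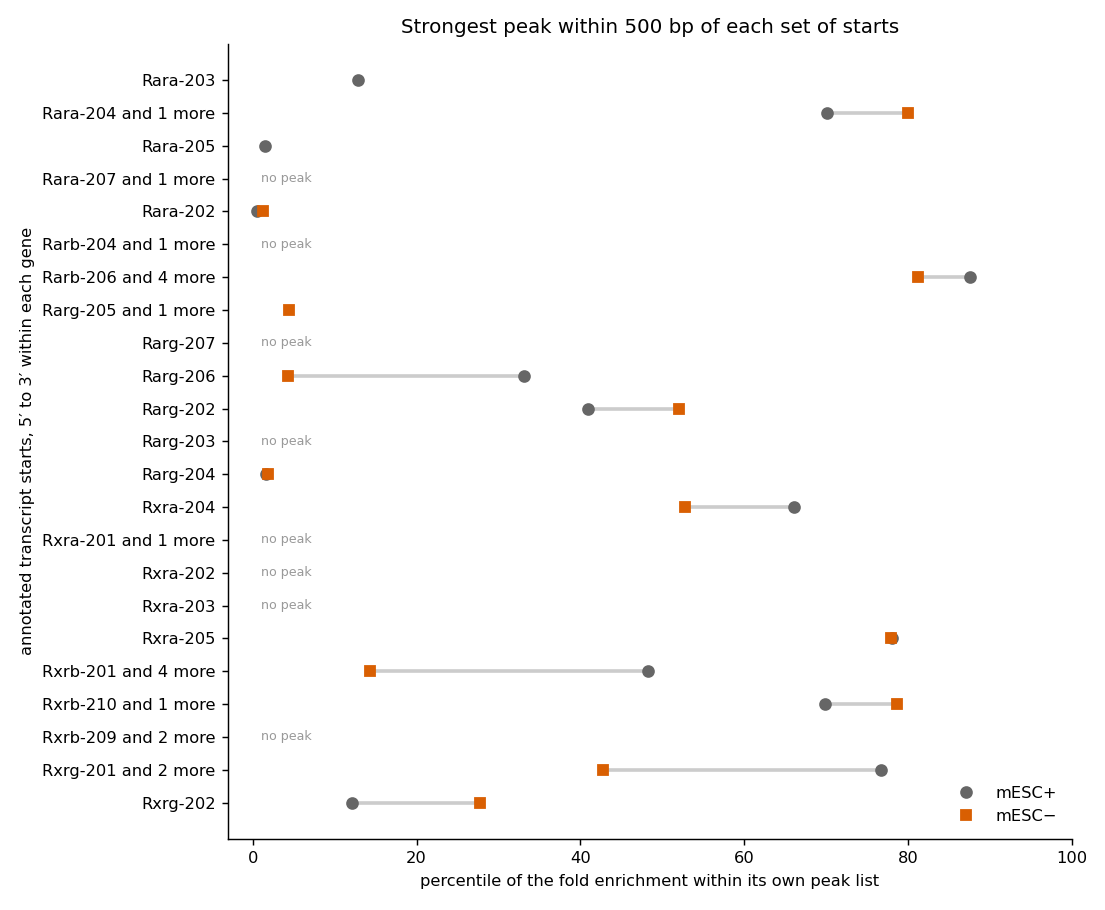
Percentile of the fold enrichment within its own peak list (horizontal axis) of the strongest peak within 500 bp of each of the 23 sets of annotated starts (vertical axis), for mESC+ (gray circles) and mESC- (orange squares), with a line joining both states. The starts of Rxrb-201 (48.3 and 14.4) and Rxrg-201 (76.7 and 42.8) rank lower in mESC-, and 8 sets have no peak.

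Across the windows of the 6 genes, 227 peaks were called in mESC+ and 211 in mESC-, which merged into 248 loci. Of the mESC+ peaks, 47 (20.7%, exact Clopper-Pearson 95% interval 15.6 to 26.6%) had no overlapping mESC- peak, against 26.1% over all mESC+ peaks. Of the mESC- peaks, 28 (13.3%, 9.0 to 18.6%) had no overlapping mESC+ peak, against 14.1% over all mESC- peaks. Both intervals contain the share over all peaks, and they cover counting error over peaks only, since the read totals are not known.

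The windows of the single genes differed from each other. Rarg, the shortest RAR gene in a window with 13 other coding genes, had 60 mESC+ and 59 mESC- peaks (27 and 26.5 per 100 kb). Rarb, the longest gene in a window with only Top2b beside it, had 20 and 21 peaks (3.40 and 3.57 per 100 kb). Rara had 53 and 47 peaks, Rxrb 42 and 42, and Rxrg 30 and 30. Rxra, with no other coding gene in its window, had 22 peaks in mESC+ and 12 in mESC-.

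Peaks found in 1 state alone were mostly of mESC+ at Rara and Rxra, and at Rarb those of mESC- were slightly more. Over all peaks, 42631 of mESC+ and 19885 of mESC- had no partner, so more mESC+ peaks without one is the usual case. At Rxra, 11 of 22 mESC+ peaks (50%, interval 28.2 to 71.8%) had no partner, and 1 of 12 mESC- peaks (8.33%, 0.211 to 38.5%) had none. The strongest of the 11 lay in an intron of Rxra at chr2:27730139-27730265, 53.8 kb from the 5′ end, with a fold enrichment of 8.42 (percentile 67.0). At Rara, 14 of 53 mESC+ peaks (26.4%, 15.3 to 40.3%) and 3 of 47 mESC- peaks (6.38%, 1.34 to 17.5%) had no partner. At Rarb, these numbers were 4 of 20 (20.0%, 5.73 to 43.7%) and 6 of 21 (28.6%, 11.3 to 52.2%). Of these intervals, that of Rxra in mESC+ lies above the 26.1% of all mESC+ peaks, and the others contain the share of their list. Those of Rarg (8 of 60, 13.3%, 5.94 to 24.6%) and Rxrb (5 of 42, 11.9%, 3.98 to 25.6%) in mESC+ lie below it. The remaining intervals contain the share of their list. None of the intervals was corrected for the number of genes and lists, and each covers counting error over the peaks of 1 library only.

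**Figure D4:**
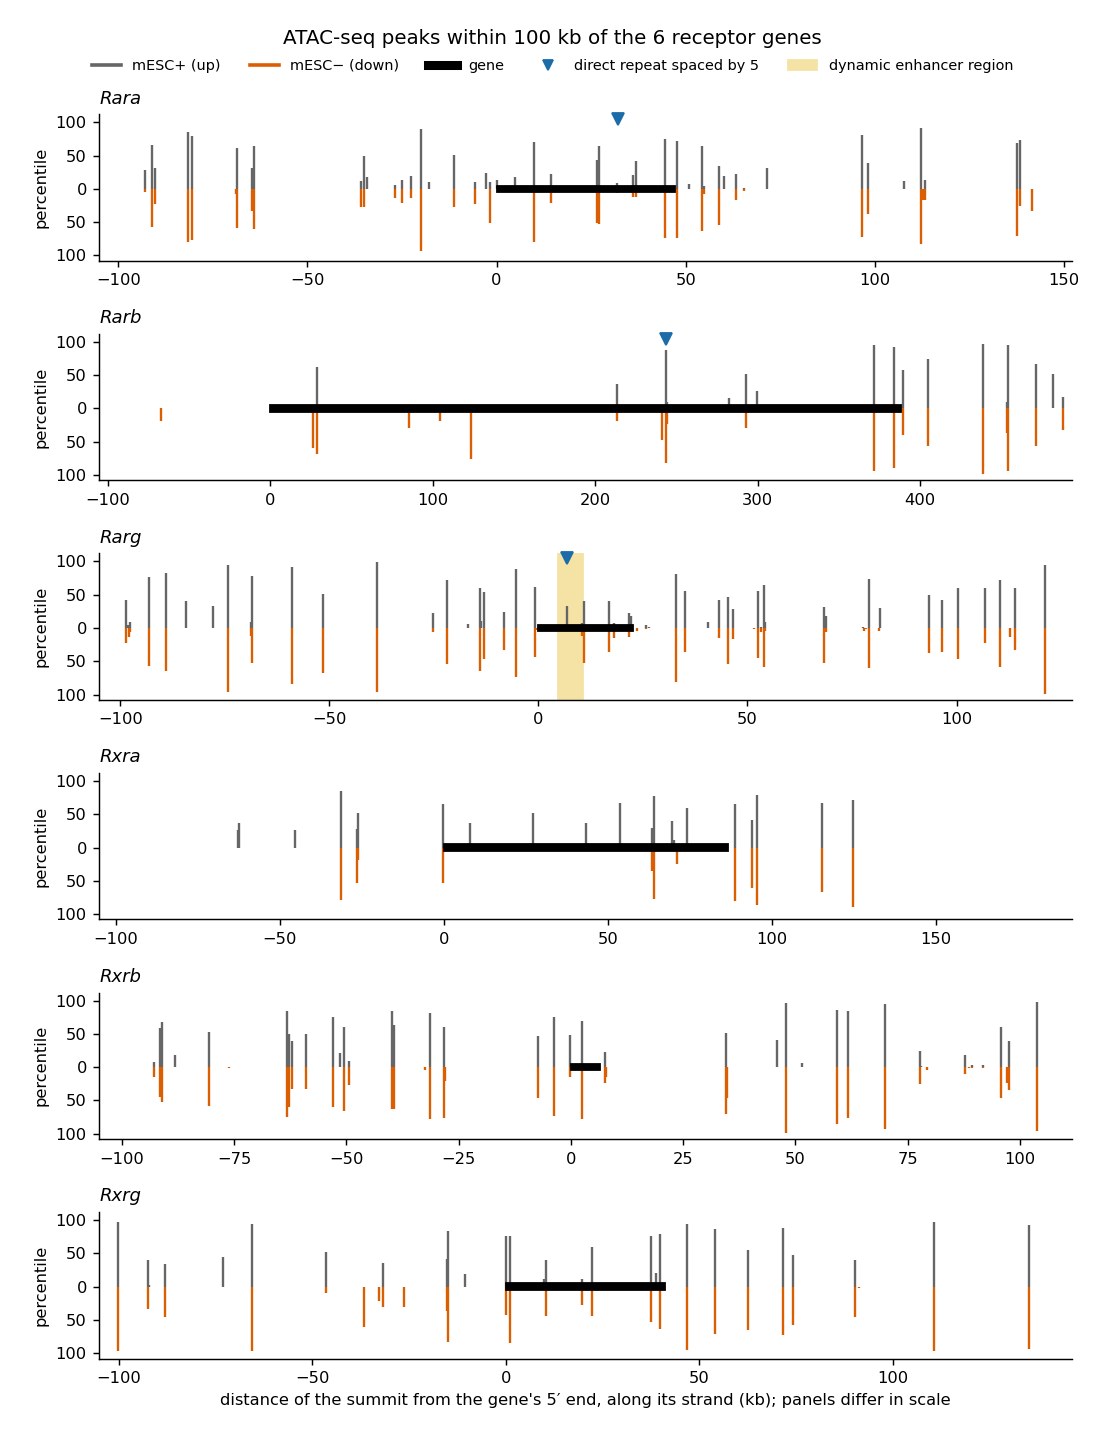
ATAC-seq peaks within 100 kb of the 6 genes, by distance of the summit from the 5′ end of the gene along its strand (horizontal axis, kb, with a scale of its own in each panel); lines give the percentile of the fold enrichment within the list, upward for mESC+ (gray) and downward for mESC- (orange), with the gene in black, loci with a direct repeat spaced by 5 as triangles and the dynamic enhancer region shaded. Rxra has 11 peaks in mESC+ alone, and Rarb has 6 in mESC- alone, of which 5 lie over the gene.

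The strongest of the 28 peaks found in mESC- alone lay in the gene of Rarb. It was at chr14:16695595-16695947, in an intron 123 kb from the distal start, with a fold enrichment of 9.48 (percentile 75.7). Of the 19885 peaks found in mESC- alone in the genome, 81 (0.407%) had at least this fold enrichment, and their median was 4.74. It held no exact repeat, but 1 with a single mismatch, as did another of the 6 mESC- peaks without a partner at Rarb (GGTTCAccgagAGGACA, chr14:16714544-16714560), with a fold enrichment of 4.74. Repeats with up to 1 mismatch were found in 2 of these 6 peaks and in 4 of the 25 loci of the Rarb window, against 3.32% of all loci of mESC- alone and 2.27% of all loci. The comparison within the peaks of mESC- alone was chosen after the values were seen. The 150 bases around the summit are printed because they hold the strongest such peak (chr14:16695624-16695773, GRCm38, minus strand, hexamers of the match in capitals).
Rarb intron: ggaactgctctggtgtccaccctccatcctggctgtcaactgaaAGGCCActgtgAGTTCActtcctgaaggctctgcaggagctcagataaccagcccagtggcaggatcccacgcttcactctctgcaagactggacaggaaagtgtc

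Among the 173 loci found in both states, 72 (41.6%, interval 34.2 to 49.3%) ranked higher in mESC-, against 40.7% of all shared loci. At least 20 points were gained by 6 of these loci (3.47%) and lost by 17 (9.83%), against 6.99% and 15.1% of all shared loci. The largest rise at Rarb was in an intron at chr14:16578176-16578331, 2425 bp from the nearest annotated start, from a fold enrichment of 3.62 to 6.44 and from percentile 3.45 to 46.9. At Rara the largest rise lay 1685 bp upstream of the gene, from 4.20 to 6.58 and from percentile 10.7 to 51.2. These rises, of 43.4 and 40.5 points, both lay upstream of a start and held no exact repeat.

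The largest falls lay outside the genes for Rara, in Tns4 (percentile 73.7 to 26.3), for Rarg, in Soat2 (59.4 to 22.8), and for Rxrg (51.7 to 9.03). At Rarg, 14 shared loci ranked higher in mESC- and 34 in mESC+, with a median change of -7.42 points. At Rxra, 7 ranked higher in mESC- and 4 in mESC+, with a median of 6.86, and its locus at the start of Rxra-204 was among the 4. The medians of Rara, Rarb, Rxrb and Rxrg were -1.54, -1.56, -0.651 and -0.719, all nearer to 0 than the -2.49 of all shared loci.

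**Figure D5:**
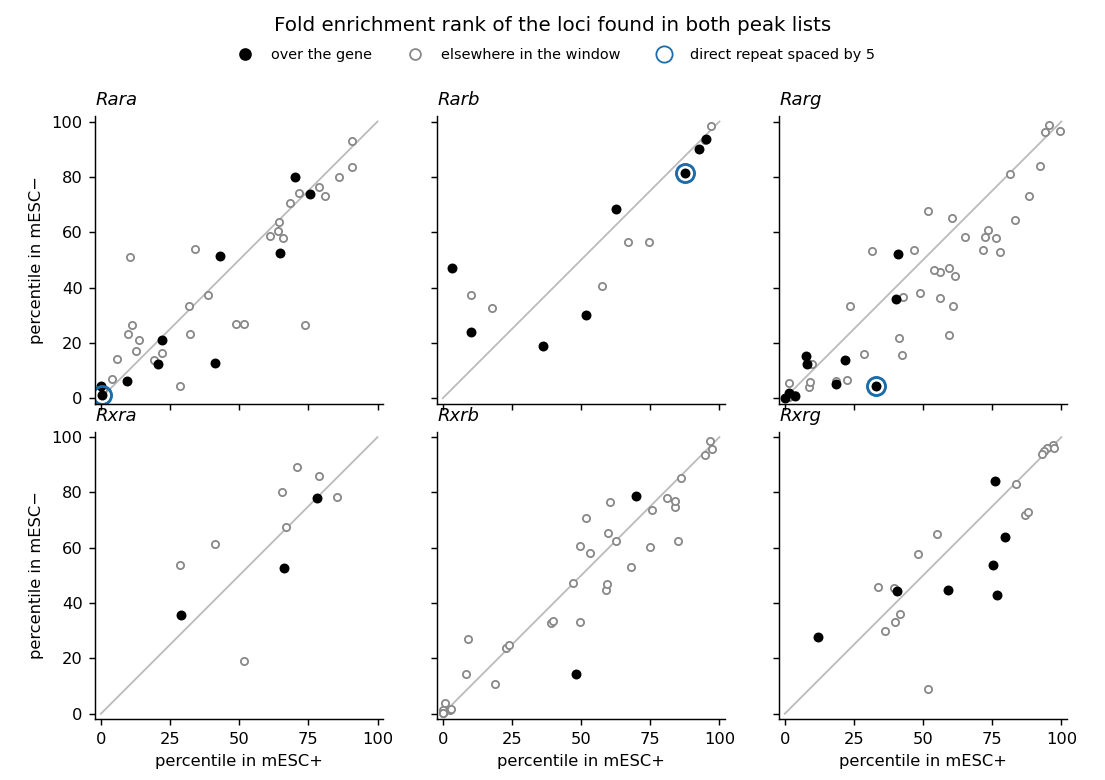
Percentile of the fold enrichment in mESC+ (horizontal axis) and in mESC- (vertical axis) of the loci found in both peak lists, 1 panel per gene, with loci over the gene in black, other loci of the window as open circles, loci with a direct repeat spaced by 5 ringed in blue and equal ranks on the diagonal. Most loci of Rarg (34 of 48) lie below the diagonal, and the ringed locus of Rarb is at 87.5 and 81.3.

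A dynamic enhancer region, called by the authors from histone marks, was present in the window of Rarg alone, while 4.54% of protein-coding genes had one within 100 kb and 0.785% had one over the gene. It spans 6000 bp inside Rarg, at chr15:102246901-102252900, with an enhancer probability of 0.038 in the mESC+ set and 0.931 in the mESC- set. All 3 loci inside it were found in both states. One of them is the locus with the repeat, whose percentile fell from 33.1 to 4.34 by fold enrichment. Of the others, the one next to the start of Rarg-202 was at percentile 8.11 in mESC+ and 12.5 in mESC-, and the one in the intron between them at 3.67 and 0.771. The enhancer probability of the region was thus higher in mESC-, while 2 of its 3 loci had a lower rank of accessibility there. The list holds only regions that the authors called different between the states, so a gap in probability was a condition for being listed.

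The nearest dynamic regions of the other 5 genes lay outside their windows, and a link between them and the genes was not tested. These regions lay 965 kb from Rxrb, 2088 kb from Rara, 3009 kb from Rxra, 3038 kb from Rarb and 11771 kb from Rxrg. In the related lists, dynamic regions lay within 100 kb of Vdr (probability 0.0095 in mESC+ and 0.9212 in mESC-), Ppard (0 and 0.8134) and Stra6 (0 and 0.8722), and over Dhrs3 (0.0174 and 0.846). Regions higher in mESC+ are listed as well, such as the one nearest to Rarb (0.8928 and 0). Among the genes of these lists, those with exact repeats spaced by 5 inside a locus included Cyp26a1 (4 loci, 1 over the gene), Cyp26c1 (4), Nr6a1 (2), Nr2c1 (1), Dhrs3 (1) and Pparg (1). The windows of Cyp26a1 and Cyp26c1 can share loci, since both genes lie on 1 chromosome next to each other.

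Repeats spaced by 1, the arrangement used by RXR pairs and several orphan receptors, were found inside a locus at Rxrb and Rarg. The one of Rxrb is shown because it is the only exact repeat inside a locus of an RXR gene, on the plus strand at chr17:34027880-34027892 (GRCm38, hexamers in capitals), 3926 bp upstream of Rxrb-201 and in a non-coding exon of H2-Ke6. It lay 12 bp outside the mESC+ peak of 349 bp and inside the mESC- peak of 500 bp. The share of repeats spaced by 1 that a mESC- peak alone covers was not computed. Repeats spaced by 2 were found in the windows of all 6 genes, 3 to 7 per window, and in none of their loci. Over the genome, 2.96% of repeats spaced by 1 and 2.66% of those spaced by 2 lay inside a locus. Of all loci, 0.262% and 0.396% held one, so these numbers are near the background and are no result about the genes.
Rxrb: gggaggAGGTCAgAGGTCAcggggc

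The label of the cells was checked against markers. All 6 stem cell markers (Pou5f1, Nanog, Sox2, Klf4, Esrrb and Zfp42) had a promoter peak in both states, but so did the 3 primitive endoderm and the 3 fibroblast markers, so promoter peaks do not separate the cell types. Of the markers with a row in the RNA-seq table, the mean normalized counts were 18458 for Zfp42, 8169 for Sox2 and 2847 for Klf4. They were 54.1 for Gata6 of primitive endoderm and 126 for Thy1 of fibroblasts. Pou5f1, Nanog, Esrrb, Gata4, Sox17, Col1a1 and Col1a2 had no row and give no level, so the marker lists cannot be compared in full.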

How the data were processed

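E14 mESCs were profiled by RNA-seq (6 libraries), ATAC-seq (2) and ChIP-seq (8 used, 10 libraries of other histone marks not used). Read totals are unknown. For RNA-seq, alignment by the authors was to GRCm38, with BWA-MEM according to the methods, while the submitters' processing notes also name STAR 2.5.1b, and their deposited table gives a mean normalized signal per gene over all libraries, as DESeq2 computes it. Its log2 fold changes, standard errors, Wald statistics and p-values are the authors' own comparison and were not used. For ATAC-seq, reads were aligned by BWA-MEM, duplicates were taken out in SAMtools, and the authors ran MACS2 on each library (settings not given in the sources used here). Each deposited peak has a fold enrichment, a ratio over the local background, and -log10 p and q values. For ChIP-seq, the authors used STAR for mapping and Picard for duplicates, and predicted enhancers with CRUP. The deposited list gives an enhancer probability, a fraction between 0 and 1, per state. Its p-values and clusters were not used.

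Gene positions and starts came from GENCODE vM21 and sequences from GRCm38.p6. Windows were the gene body with 100 kb on each side. Peaks overlapping by at least 1 bp were merged into loci, and the strongest peak of each list represented a locus. Since separate libraries share no scale, peaks were ranked by percentile of fold enrichment within their list. With 1 library per state there was no test; shares have exact Clopper-Pearson 95% intervals. Hexamer repeats spaced by 1, 2 or 5 bases were searched exactly on both strands. Named loci were those within 500 bp of a start, those with a repeat spaced by 5, and per window the largest rise, the largest fall and the strongest peak of each state alone. The text gives a selection of them, and the values of 1 listed gene and 1 near match are not reported here. The 6 genes and all gene lists were chosen with earlier results of these data known. The functions were tested on simulated data (552 of 552 checks passed). Intervals were computed with SciPy 1.17.1, sequences were read with pysam 0.24.0, tables were handled in pandas 2.3.3 and NumPy 2.4.6 under Python 3.11.15, and plots were drawn with matplotlib 3.10.9.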

Additional observations from a re-analysis of the deposited data

How the results depend on the processing

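The peak counts and shares over all 6 windows, the promoter, dynamic region and repeat counts, the RNA levels and the changes at the 3 repeats were recomputed under other settings, and the values per gene and per start were not. With -log10 q of at least 10, the windows held 104 mESC+ and 90 mESC- peaks; with the top 50000 peaks of each list, 54 and 52; and with 50 kb on each side, 143 and 130. The share of mESC+ peaks without a partner was 33.3% (20 of 60) over the gene bodies alone, a setting added after the data were seen. The share over the bodies of all genes was not computed, so this value has no background. The share of mESC- peaks without a partner was 21.2% (11 of 52) among the top 50000, where the share over all mESC- peaks was 19.0%. The share of shared loci ranking higher in mESC- turned to 53.7% (22 of 41) among the top 50000 peaks, with 52.2% over all shared loci under that setting. With 200 kb on each side, the windows held 2 dynamic regions in place of 1, and with 1 mismatch allowed, 9 loci held a repeat spaced by 5 in place of 3. Ranked by -log10 p, the change at the Rarb repeat was 0.245 in place of -6.29 points and that at the Rara repeat 13.8 in place of 0.669. The cause of these shifts was not tested beyond the smaller or larger sets of peaks. In all, 17 of 35 recomputed values stayed within limits set around the reported value. The RNA levels and the changes at the 3 repeats had no such limits, and they are counted among the 35 as not staying. No paired analysis was possible because no value per RNA-seq library was used and ATAC-seq and ChIP-seq have 1 library or set per state, and for the same reason no replicate could be left out. Unknown read depth limits every comparison of peaks found in 1 list alone.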

Other observations

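The near matches to a repeat spaced by 5 in the remaining loci lay at Rara (AGTTCAtacaaGGCTCA, inside the gene), at Rarb (AGGTGAacacaAGGTCA, in the locus at chr14:16434507-16435255 that also covers the untranslated exon of Top2b) and at Rarg (GGGTCAtgtcaGGGACA and AGGTCAggggaGGTCCA, both outside the gene). All 4 lay in loci found in both states. No locus of Rxra, Rxrb or Rxrg held a repeat spaced by 5 with up to 1 mismatch, in 23, 47 and 32 loci, against 2.27% of all loci that held one. By fold enrichment, the strongest peaks over Rarb were not at its promoter. A locus in an intron at chr14:16447682-16447932 had fold enrichments of 15.7 and 14.2 (percentiles 95.1 and 93.8). The locus shared with Top2b had 14.4 and 12.8 (percentiles 92.6 and 90.2). By -log10 p-value, the intron locus (percentiles 89.0 and 87.7) ranked below the promoter locus with the repeat (90.3 and 90.5). The locus shared with Top2b (97.0 and 95.9) ranked above it.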
